A study of Mus musculus with 23 samples.

Results

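The 9 genes described here buffer high-energy phosphate or store oxygen in muscle cells: the creatine kinases Ckm, Ckb, Ckmt1 and Ckmt2, the creatine synthesis enzyme Gamt, the creatine transporter Slc6a8, the adenylate enzymes Ampd1 and Ak1, and myoglobin, Mb. They were chosen by symbol among the 32793 genes of the deposited tables, and all 9 symbols were found. The libraries come from C2C12, a mouse myoblast line that grows as single dividing cells in rich serum and forms multinucleated myotubes after serum withdrawal. Cells were control (labelled WT) or Runx1KO (labelled KO), and Runx1 encodes a Runt-domain transcription factor. Poly(A) RNA was sequenced from growth medium with 20% fetal bovine serum (day 0) and from medium with 2% horse serum on days 1, 3 and 6. The sample titles give day 6 where the series text gives day 5, and day 6 is used here. There were 8 groups, with 2 libraries analysed here for WT on day 0 and 3 for every other group. The labels name no clone, do not say how Runx1 was altered, and do not say that replicates were separate cultures, so p-values measure the spread between these libraries, which may be technical.

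Creatine kinases move phosphate between ATP and creatine, which lets a contracting cell refill its ATP faster than metabolism can. In rodents the brain-type subunit encoded by Ckb is the form of dividing myoblasts, and the muscle-type subunit encoded by Ckm is added as myotubes form, while Ckmt2 and Ckmt1 encode the mitochondrial isoforms of striated muscle and of other tissues. Gamt makes creatine, Slc6a8 imports it, Ak1 recombines ADP, Ampd1 removes AMP, and myoglobin holds oxygen in the cytoplasm.

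The libraries held between 22197606 and 23684077 estimated counts. Runx1 mRNA went against the label: at every time point the labelled KO libraries had more of it, by log2 fold changes of 0.51, 0.35, 0.54 and 1.02 on days 0, 1, 3 and 6 (adjusted p = 0.0003616, 0.001509, 1.092e-05 and 6.111e-10, edgeR quasi-likelihood test with Benjamini-Hochberg adjustment). A gene-level count does not show whether a transcript is intact, and "labelled KO" is used throughout. Myod1, which defines the muscle lineage, had 3180 to 11600 counts in every library. The summed level of 8 skeletal muscle markers was 934 to 946 TPM in WT and 1256 to 1296 TPM in labelled KO on day 0, and 2821 to 3217 TPM in WT and 11578 to 13407 TPM in labelled KO on day 6. Of these 8 markers, 6 were higher and 1 was lower in labelled KO on day 6, when 42.9% of all genes tested differed. Acta1 reached 9018 TPM in a labelled KO library of day 6 and made up most of the sum in that library. Adipoq, Cidec, Lep and Adgre1 had 0 counts in every library, and Ptprc and Plin1 at most 1, so defining markers of fat cells and macrophages were at or near 0. The macrophage list summed to 15.5 to 17.2 TPM in labelled KO and 5.14 to 9.14 TPM in WT on day 6, most of it Cd68, with 214 to 265 counts in labelled KO and 59 to 111 in WT. The list's other tested gene, Csf1r, lay the other way, with 11 to 14 counts in labelled KO and 42 to 70 in WT. The 5 heart muscle markers summed to at most 2.79 TPM in any library, and on day 6 to 1.99 to 2.28 TPM in labelled KO and 0.29 to 1.29 TPM in WT. Both tested members of that list were then higher in labelled KO, Myh6 with 16 to 19 counts against 0 to 2 and Tnni3 with 15 to 17 against 1 to 9 (adjusted p = 0.0001315 and 0.006803, edgeR). The 4 neural markers summed to 136 to 164 TPM on day 0, and on day 6 to 38.7 to 40.2 TPM in labelled KO and 63.5 to 73.8 TPM in WT. That sum was carried by Tubb3 and Syn1, while Rbfox3 had at most 1 count and Gfap at most 11. The 4 endothelial markers summed to at most 0.65 TPM in any library. The part of these markers in the members' values was not tested.

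Ckm and Mb were silent or nearly so in growth medium and became the most abundant of these mRNAs in labelled KO on day 6, with means of 546 and 424 TPM. In WT on day 6 they stood at 34.1 and 22.2 TPM, and there Ak1 was the most abundant of the 9 genes at 128 TPM. Ckm fell from day 3 to day 6 in WT and rose in labelled KO. Ckb rose in both genotypes and was not replaced by Ckm. TPM (transcript abundance normalised for transcript length and depth) is used below to compare genes with each other, and CPM (counts normalised to the scaled library size) to compare 1 gene across libraries. In bulk RNA, more cells expressing a gene and more RNA per cell cannot be told apart.

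**Figure D1:**
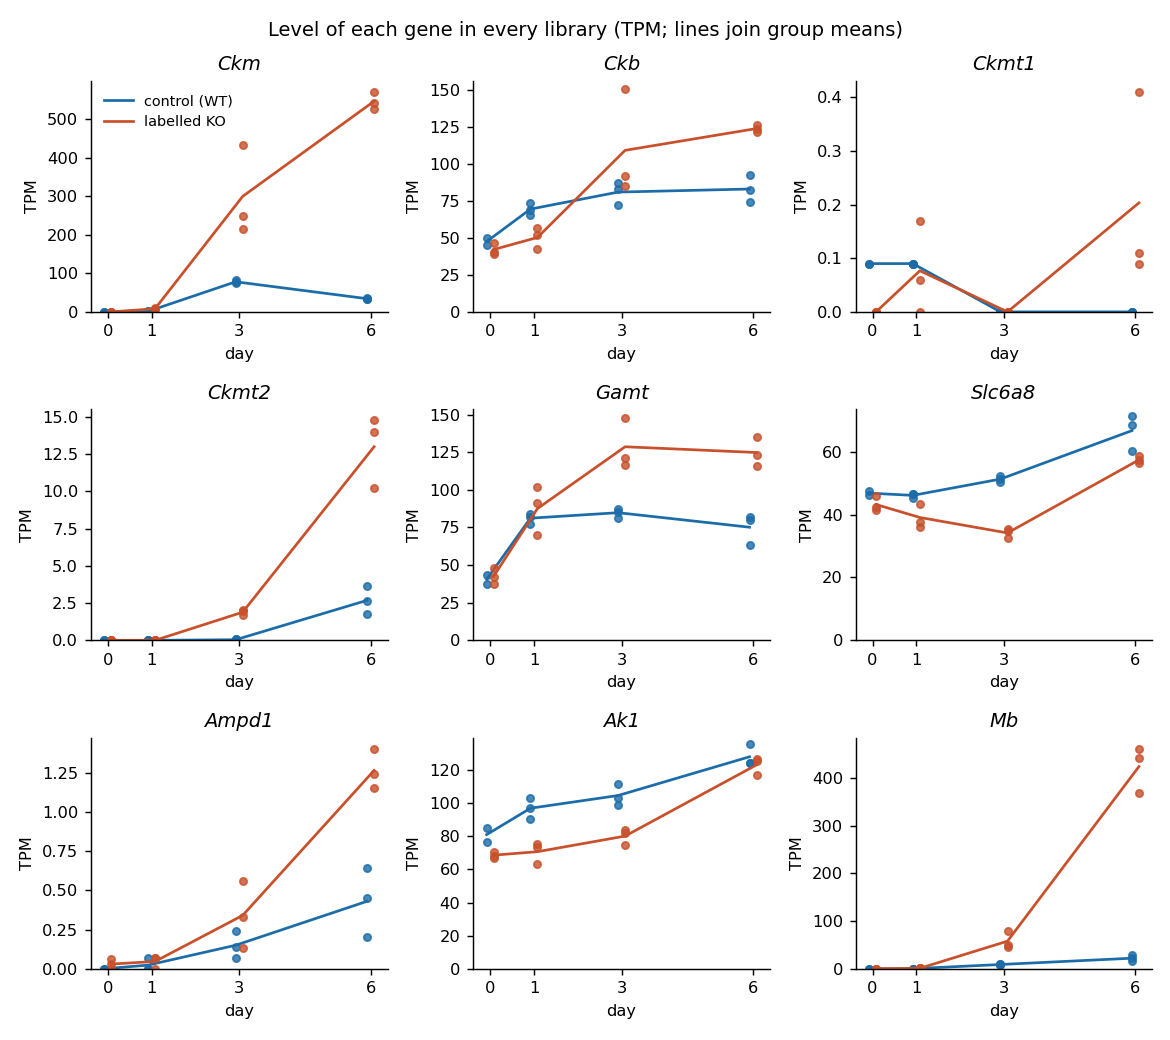
TPM of each of the 9 genes (vertical axis, linear, own scale per panel) against day (horizontal axis) in every library, as points, with lines joining group means, for WT and labelled KO. The 3 labelled KO libraries on day 6 sit between 526 and 570 TPM for Ckm and between 369 and 461 TPM for Mb, and the WT libraries between 32.2 and 36.8 TPM and between 15.4 and 28.7 TPM.

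The stretches just before the transcription starts of Ckm, Mb, Ckmt2 and Ckb are shown because the first 3 were switched on from near 0 and Ckb was already transcribed in growth medium. They are from RefSeq (GRCm38.p6, the same assembly as the mm10 build that the submitters' processing notes name), on the gene's strand, in lower case with each E-box, the CANNTG motif that MyoD-family factors bind, in capitals. The Ckm stretch is chr7:19410844-19411024 on the plus strand and stops short of bases annotated as exons of Ckm. The Mb stretch is chr15:77022788-77023037, the Ckmt2 stretch chr13:91876886-91877135 and the Ckb stretch chr12:111672339-111672588, each on the minus strand.
Ckm: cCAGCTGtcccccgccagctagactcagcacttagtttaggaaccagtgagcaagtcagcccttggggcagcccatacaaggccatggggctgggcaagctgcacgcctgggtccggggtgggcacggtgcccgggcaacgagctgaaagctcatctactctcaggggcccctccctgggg
Mb: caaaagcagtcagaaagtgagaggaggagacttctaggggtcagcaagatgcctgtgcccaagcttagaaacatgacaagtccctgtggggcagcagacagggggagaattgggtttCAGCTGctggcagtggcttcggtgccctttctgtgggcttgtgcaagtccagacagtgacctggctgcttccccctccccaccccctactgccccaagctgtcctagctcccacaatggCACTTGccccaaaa
Ckmt2: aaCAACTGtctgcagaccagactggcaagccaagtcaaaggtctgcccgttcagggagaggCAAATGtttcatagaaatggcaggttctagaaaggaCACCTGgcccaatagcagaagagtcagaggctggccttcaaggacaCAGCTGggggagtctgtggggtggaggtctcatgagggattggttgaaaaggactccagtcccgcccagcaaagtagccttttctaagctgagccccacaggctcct
Ckb: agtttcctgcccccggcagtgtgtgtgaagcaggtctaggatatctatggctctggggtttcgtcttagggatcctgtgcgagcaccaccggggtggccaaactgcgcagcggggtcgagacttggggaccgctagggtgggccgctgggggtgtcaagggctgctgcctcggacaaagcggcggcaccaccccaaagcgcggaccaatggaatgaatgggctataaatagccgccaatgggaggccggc

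In the 250 bases before these starts, CANNTG, which reads the same on both strands, was found at 1 place for Ckm, 2 for Mb, 4 for Ckmt2 and 0 for Ckb. For Ckm it began at base -249, for Mb at -133 and -14, and for Ckmt2 at -248, -189, -153 and -107, counted back from the start. The Ckm match, 1 of the Mb matches and 1 of the Ckmt2 matches read CAGCTG. Of 32851 RefSeq mouse promoter windows of the same length, 66.2% held CANNTG and 13% held CAGCTG, so a match to the general motif is common. TGTGGT, a Runx-type motif searched on both strands, was in 14% of the windows and in none of these 4. RefSeq lists 2 other starts for Mb, and the window before the one at 77050668 held 1 match to TGTGGT. Of the members not shown, Ak1 and Gamt were also expressed in growth medium. Ak1 had CANNTG at 3, 1, 2 and 1 places before its listed starts, and Gamt at 0. TGTGGT matched 1 place before each of the Ak1 starts at 32621758 and 32629500. It also matched 1 place before each Ckmt1 start, where CANNTG had 0 matches. The MEF2 motif was in 2.9% of the windows and matched 1 place for Ckb. A match is a description of letters, not a site.

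Ckm (Ckm, chromosome 7, 19404776 to 19422841, plus strand, GENCODE annotation of GRCm38) encodes the muscle subunit of cytosolic creatine kinase. On day 0 it had 0 and 2 counts in the WT libraries and 0 counts in each of the 3 labelled KO libraries. On day 1 it measured 0.510, 0.976 and 1.07 CPM in WT and 5.46, 5.32 and 7.30 CPM in labelled KO. The labelled KO libraries were all above the WT libraries from day 1 on. On day 3 the WT libraries had 54.6, 57.4 and 53.9 CPM and the labelled KO libraries 338, 167 and 200.3 CPM. On day 6 the WT libraries had 26.4, 24.5 and 21.3 CPM and the labelled KO libraries 385, 424 and 454 CPM. Ordered by mean, the levels ran from both day 0 groups through WT day 1, labelled KO day 1, WT day 6, WT day 3 and labelled KO day 3 to labelled KO day 6, and beyond the day 0 groups no neighbours in that order overlapped.

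The difference between labelled KO and WT in Ckm was 2.81 (SE 0.33) on the log2 scale on day 1, 2.09 (SE 0.18) on day 3 and 4.13 (SE 0.20) on day 6, a 17.5-fold difference (adjusted p = 9.532e-07, 7.626e-09 and 3.968e-13, edgeR). Against day 0, Ckm in WT was 18.9 times as high on day 1 (95% exact counting interval 5.00 to 159), 1226 times on day 3 (339 to 10128) and 533 times on day 6 (147 to 4402). These ratios rest on 2 counts in WT on day 0. Labelled KO, with 0 counts on day 0, is compared with a floor of 3 counts per library, and Ckm was there at least 43.5-fold higher on day 1, at least 1700.4-fold on day 3 and at least 3040.4-fold on day 6. Intervals and floors cover counting error only. Replicate 1 of labelled KO on day 3 was the highest of its group for Ckm, Ckb, Gamt, Ampd1, Mb and Runx1. It was also the highest for Ckmt2, with 1.67 CPM against 1.66 CPM in replicate 3. Without it the day 3 difference in Ckm was 1.73.

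From day 3 to day 6 Ckm fell by 1.20 (SE 0.19) on the log2 scale in WT and rose by 0.84 (SE 0.17) in labelled KO (adjusted p = 0.0002062 and 0.0005014, edgeR). The difference between these changes was 2.04 (SE 0.25, adjusted p = 3.833e-05, edgeR). This comparison of the last intervals was added after the values had been seen.

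Ckb (chromosome 12, 111669361 to 111672338, minus strand) encodes the brain-type subunit. It had 40.7 and 39.1 CPM in the WT libraries and 40.0, 36.2 and 34.5 CPM in the labelled KO libraries on day 0. By day 6 it had 55.9, 66.0 and 62.1 CPM in WT and 93.4, 101.7 and 106.1 CPM in labelled KO. The groups overlapped on day 0 and were apart on day 6. On day 1 WT had 51.7, 50.2 and 57.7 CPM and labelled KO 42.5, 31.7 and 44.7 CPM, with every labelled KO library below every WT library. On day 3 WT had 65.1, 61.6 and 54.5 CPM and labelled KO 123.7, 75.0 and 72.1 CPM. All 3 labelled KO libraries were then above WT, with replicate 1 far above the other two.

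On day 0 the difference in Ckb between the genotypes was -0.11 (95% interval -0.45 to 0.22, adjusted p = 0.7396, edgeR). It was -0.42 (SE 0.15) on day 1, 0.58 (SE 0.15) on day 3 and 0.71 (SE 0.15) on day 6 (adjusted p = 0.02717, 0.002904 and 0.0004341, edgeR). The sign of the difference thus changed between day 1 and day 3. The day 1 value was -0.31 without replicate 2 of labelled KO (adjusted p = 0.1201) and -0.36 without replicate 3 of WT (adjusted p = 0.09993), and the day 3 value was 0.28 without replicate 1 of labelled KO (adjusted p = 0.05707, all edgeR). Against day 0, Ckb rose in WT by 0.41, 0.60 and 0.62 on days 1, 3 and 6, and in labelled KO by 1.29 on day 3 and 1.44 on day 6, with 0.10 on day 1 (adjusted p = 0.6033, edgeR). The day 1 rise in WT did not pass without either WT day 0 library or without replicate 3 of WT on day 1 (0.49, 0.38 and 0.35, with adjusted p = 0.07841, 0.1813 and 0.1245, edgeR). The rise to day 6 was larger in labelled KO by 0.82 (SE 0.23, adjusted p = 0.01541, edgeR), a call lost without replicate 1 of WT on day 0 (0.75, adjusted p = 0.08351) or replicate 1 of WT on day 6 (0.71, adjusted p = 0.05465).

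The change in the composition of cytosolic creatine kinase mRNA was described by the share of Ckm in the summed TPM of Ckm and Ckb. It was 0 and 0.242% in the WT libraries and 0 in each labelled KO library on day 0. On day 1 it was 1.67% ± 0.495 (SD, n = 3) in WT and 13.8% ± 1.70 (SD, n = 3) in labelled KO. Ckb therefore made up most of the pair in both genotypes on day 1. On day 3 the share was 49.1% ± 2.10 (SD, n = 3) in WT and 73.0% ± 2.44 (SD, n = 3) in labelled KO, and on day 6 it was 29.3% ± 3.51 (SD, n = 3) in WT and 81.5% ± 0.300 (SD, n = 3) in labelled KO. In WT, Ckm and Ckb were near equal on day 3, and Ckb was again the larger on day 6, with 83.1 TPM against 34.1 TPM. In labelled KO the pair summed to 670.1 TPM on day 6, of which Ckb gave 124 TPM, while in WT it summed to 159 TPM on day 3 and 117 TPM on day 6. The share rose in labelled KO while the Ckb level also rose, so the composition moved through the gain of Ckm and not through a loss of Ckb mRNA.

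**Figure D2:**
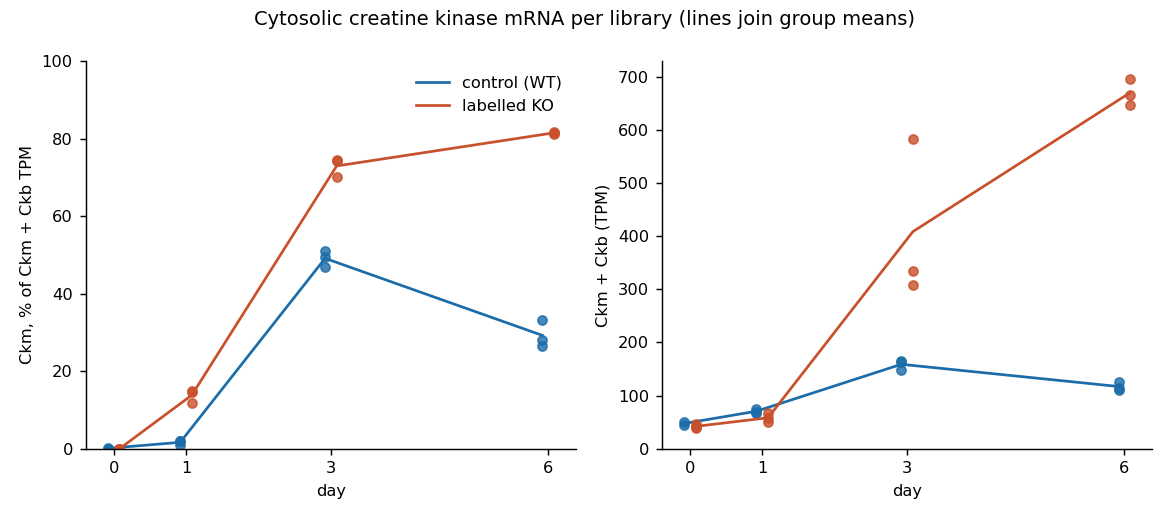
Left, Ckm as a percentage of Ckm plus Ckb TPM, and right, the sum of both in TPM, against day, in every library (points) with lines joining group means. On day 6 the labelled KO libraries lie at 81.2% to 81.8% and the WT libraries at 26.5% to 33.2%, and WT is lower on day 6 than on day 3 in both panels.

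Ckmt2 (chromosome 13, 91853387 to 91876885, minus strand) encodes the mitochondrial creatine kinase of striated muscle. It had 0 counts in all 5 libraries of day 0 and all 6 of day 1. On day 3 the WT libraries had 0, 1 and 1 counts and the labelled KO libraries 37, 31 and 37 counts. On day 6 it had 2.75, 1.42 and 1.80 CPM in WT and 7.94, 11.6 and 12.5 CPM in labelled KO, and the groups did not overlap on either day. The day 3 level in labelled KO was 54.3 times that in WT (95% exact counting interval 14.7 to 455, adjusted p = 9.206e-07 in edgeR), a ratio that rests on 2 counts in WT. On day 6 the difference was 2.42 (SE 0.26) on the log2 scale (adjusted p = 1.407e-06, edgeR). Over the day 0 floor, Ckmt2 was at least 14.7-fold higher in WT on day 6, and at least 11.4-fold and at least 77.0-fold higher in labelled KO on days 3 and 6. Its day 6 level was 68.9 times the day 3 level in WT (18.7 to 575), again on 2 counts, and in labelled KO it rose by 2.76 (SE 0.27) (adjusted p = 5.485e-07, edgeR). Ckmt2 stayed far below the cytosolic isoforms, at 13 TPM in labelled KO and 2.69 TPM in WT on day 6.

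Ckmt1 (chromosome 2, 121357714 to 121363737, plus strand), the ubiquitous mitochondrial isoform, had 20 counts in all 23 libraries together and did not pass the filter on low counts. Its highest library had 8 counts, in labelled KO on day 6, where the other two had 2 and 1. Every other library had at most 3 counts, and all 3 WT libraries of day 6 had 0. Against the floor of 3 counts per library, the day 6 mean in labelled KO was at least 1.24-fold higher than in WT, which rests mainly on the library with 8 counts. On days 0, 1 and 3 both genotypes were at or under the floor, and a difference was not detectable at this depth.

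Gamt (chromosome 10, 80258151 to 80261012, minus strand) encodes guanidinoacetate methyltransferase, the second enzyme of creatine synthesis. It had 20.7 and 18.8 CPM in WT and 24, 21.8 and 19.1 CPM in labelled KO on day 0. On day 3 it had 35.4, 37.8 and 37.3 CPM in WT and 70.8, 57.7 and 57.3 CPM in labelled KO. By day 6 it had 27.8, 38.1 and 31.1 CPM in WT and 60.6, 55.1 and 60.2 CPM in labelled KO. The groups overlapped on days 0 and 1 and did not on days 3 and 6. The differences were 0.13 and 0.15 on days 0 and 1 (adjusted p = 0.6579 and 0.3732, edgeR), and 0.75 (SE 0.13) and 0.86 (SE 0.13) on days 3 and 6 (adjusted p = 5.572e-05 and 1.071e-05, edgeR). Without replicate 2 of labelled KO, the day 1 difference was 0.30 and passed (adjusted p = 0.03106, edgeR). Against day 0, Gamt rose in WT by 0.87, 0.90 and 0.71 and in labelled KO by 0.89, 1.52 and 1.44 on days 1, 3 and 6. The rise to day 6 was larger in labelled KO by 0.73 (SE 0.20, adjusted p = 0.01701, edgeR), but not without replicate 1 of WT on day 0 (0.61, adjusted p = 0.1205) or replicate 1 of WT on day 6 (0.58, adjusted p = 0.06411).

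Slc6a8 (chromosome X, 73673150 to 73682502, plus strand), the plasma membrane creatine transporter, was expressed in every library, from 75.4 to 145.8 CPM. On day 3 WT had 108, 111 and 109 CPM and labelled KO 83.2, 75.4 and 85.7 CPM, with every labelled KO library below every WT library. On day 6 WT had 145.8, 138 and 138 CPM and labelled KO 126, 134 and 141 CPM, and the groups overlapped. The difference was -0.43 (SE 0.08, adjusted p = 0.0001867, edgeR) on day 3, -0.05 on day 0 and -0.20 on day 1 (adjusted p = 0.767 and 0.05188, edgeR). The day 1 value passed under RLE scaling, scaling to library size alone, genes averaging 50 counts or more and DESeq2 (-0.25 to -0.22, adjusted p from 0.01261 to 0.02773), in both limma fits on TPM (-0.24 each, adjusted p = 0.01272 and 0.01261), and with the replicate block (-0.21, adjusted p = 0.0397). Without replicate 3 of labelled KO it was -0.30 and passed (adjusted p = 0.006466, edgeR), and without replicate 2 it was -0.12. On day 6 it was -0.08 (95% interval -0.24 to 0.08, adjusted p = 0.4833, edgeR), while limma on log2(TPM + 1) gave -0.21 and a call (adjusted p = 0.02183). Slc6a8 fell in labelled KO by 0.31 on day 1 and 0.44 on day 3 and was 0.28 above day 0 on day 6 (adjusted p = 0.002829, 8.736e-05 and 0.004363, edgeR). The day 1 fall did not pass in limma on log2(TPM + 1) or log2(TPM + 0.1) (-0.14 and -0.15, adjusted p = 0.1022 and 0.09876) or with only the groups compared (-0.30, adjusted p = 0.06922, edgeR). In WT it rose by 0.30 by day 6 (adjusted p = 0.006899, edgeR). From day 3 to day 6 it rose by 0.36 (SE 0.08) in WT and 0.71 (SE 0.08) in labelled KO (adjusted p = 0.005052 and 2.682e-07, edgeR). The transporter and the synthesis enzyme Gamt thus differed in opposite directions between the genotypes on day 3.

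Ak1 (chromosome 2, 32621758 to 32635058, plus strand), cytosolic adenylate kinase, was also expressed throughout. On day 1 it had 110.9, 107 and 102 CPM in WT and 89.5, 68.2 and 83.3 CPM in labelled KO, and the groups did not overlap. Day 6 gave 135, 143 and 131 CPM in WT and 129.9, 150.2 and 154 CPM in labelled KO, and they did. The difference was -0.41 (SE 0.09, adjusted p = 0.000765) on day 1, -0.23 (SE 0.09, adjusted p = 0.03919) on day 3 and 0.08 (95% interval -0.09 to 0.26, adjusted p = 0.4699) on day 6, all from edgeR. The day 3 call was lost without replicate 1 or 2 of labelled KO (-0.24 and -0.17, adjusted p = 0.06666 and 0.1774) or replicate 1 of WT (-0.18, adjusted p = 0.1621, edgeR). By day 6 Ak1 had risen over day 0 by 0.48 (SE 0.10) in WT and 0.74 (SE 0.09) in labelled KO (adjusted p = 0.0002197 and 1.003e-07, edgeR). On day 0 the difference between genotypes was -0.18 (adjusted p = 0.2558, edgeR), which passed with only the groups compared (-0.18, adjusted p = 0.04057, edgeR). Its change in WT by day 3 did not pass (0.20, adjusted p = 0.08763, edgeR), but did under RLE scaling, library size alone, genes averaging 50 counts or more, DESeq2, both limma fits and only the groups compared (0.22 to 0.37, adjusted p from 0.0009216 to 0.04999), and without replicate 2 of WT on day 3 (0.27, adjusted p = 0.04203, edgeR).

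Ampd1 (chromosome 3, 103074014 to 103099720, plus strand), the muscle AMP deaminase, stayed low. It had at most 2 counts per library on days 0 and 1. On day 3 it had 2, 4 and 7 counts in WT and 17, 10 and 4 counts in labelled KO, which overlap, and the difference was 1.28 (SE 0.64, adjusted p = 0.112, edgeR). Without replicate 3 of labelled KO it was 1.66 and passed (adjusted p = 0.0454, edgeR). On day 6 it had 19, 6 and 12 counts in WT and 41, 37 and 40 counts in labelled KO, with all labelled KO libraries above WT. That difference was 1.68 (SE 0.48, adjusted p = 0.006579, edgeR). Over day 0, Ampd1 on day 6 was at least 3.90-fold higher in WT and 37.1 times as high in labelled KO (95% exact counting interval 12.4 to 183, on 3 counts on day 0).

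Mb (chromosome 15, 77015487 to 77050670, minus strand) encodes myoglobin, the oxygen-binding haem protein of muscle. It had 0 counts in all 5 libraries of day 0. On day 1 it had 3, 1 and 3 counts in WT and 15, 12 and 9 counts in labelled KO. On day 3 it had 4.40, 4.42 and 4.73 CPM in WT and 42.5, 23.5 and 28.0 CPM in labelled KO. From day 1 on, every labelled KO library was above every WT library of the same day. On day 6 it had 13.8, 7.85 and 10.2 CPM in WT and 186, 250.1 and 243 CPM in labelled KO. Ordered by mean, WT day 6 lay below labelled KO day 3, and beyond the day 0 groups no neighbours in the order overlapped.

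The Mb difference was 2.34 (SE 0.81) on day 1, 2.79 (SE 0.21) on day 3 and 4.41 (SE 0.20) on day 6 (adjusted p = 0.02515, 1.747e-09 and 3.513e-13, edgeR). Leaving out replicate 1 or 2 of labelled KO or replicate 2 of WT ended the day 1 call (2.13, 2.36 and 1.99, adjusted p = 0.07655, 0.08214 and 0.0887, edgeR). Over the day 0 floor, Mb in WT was at least 33.3-fold higher on day 3 and at least 78.6-fold on day 6, and in labelled KO at least 3.81-fold, at least 226-fold and at least 1635.8-fold higher on days 1, 3 and 6. From day 3 to day 6 Mb rose by 1.24 (SE 0.22) in WT and 2.86 (SE 0.18) in labelled KO (adjusted p = 0.0009786 and 2.831e-10, edgeR), and the rises differed by 1.62 (SE 0.29, adjusted p = 0.0009091, edgeR). In WT, Mb rose over the interval in which Ckm fell.

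**Figure D3:**
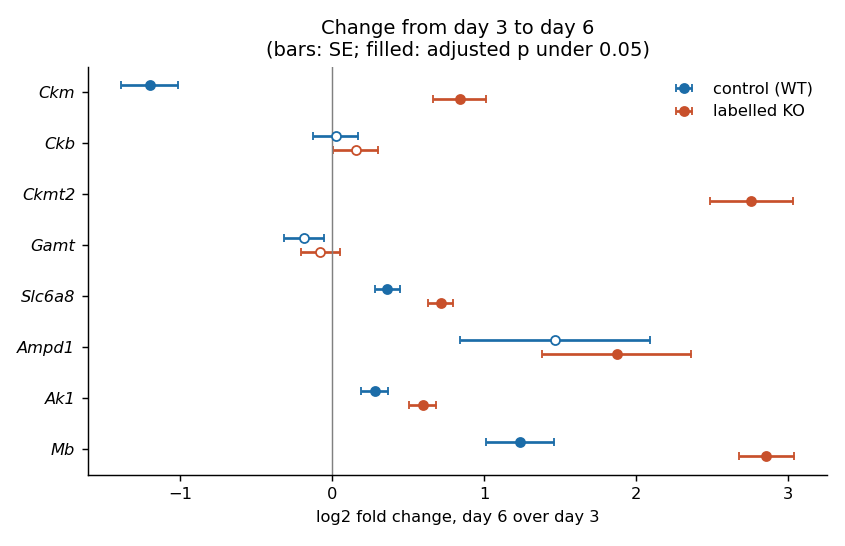
Log2 fold change from day 3 to day 6 (horizontal axis, bars are SE) for the 8 members that passed the filter, in WT and labelled KO, filled where the adjusted p from edgeR was under 0.05. Ckm lies at -1.20 in WT and 0.84 in labelled KO, and Mb at 1.24 and 2.86, and Ckmt2 in WT is not drawn because its day 3 level rests on 2 counts.

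Of the 9 members, 8 passed the filter and were tested. Members at or under the floor of 3 counts in both groups compared had no usable value and are left out of the counts below. Between the genotypes, 0 of the 4 with a value passed on day 0 (Ckb, Gamt, Slc6a8 and Ak1), where 17.5% of all 14187 genes tested did. On day 1 it was 4 of 6, 2 higher in labelled KO (Ckm and Mb) and 2 lower (Ckb and Ak1), against 42.2% of all genes. On day 3 it was 7 of 8, 5 higher and 2 lower (Slc6a8 and Ak1), against 43.2%, and Ampd1 did not pass. On day 6 it was 6 of 8, all higher, against 42.9%, and Slc6a8 and Ak1 did not pass. The median log2 difference of the 8 members was 1.27 on day 6, beside 0.0037 over all genes. Members such as Ckmt2, Ampd1 and Mb passed the filter through the later groups in which they were expressed, so these counts carry that selection.

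**Figure D4:**
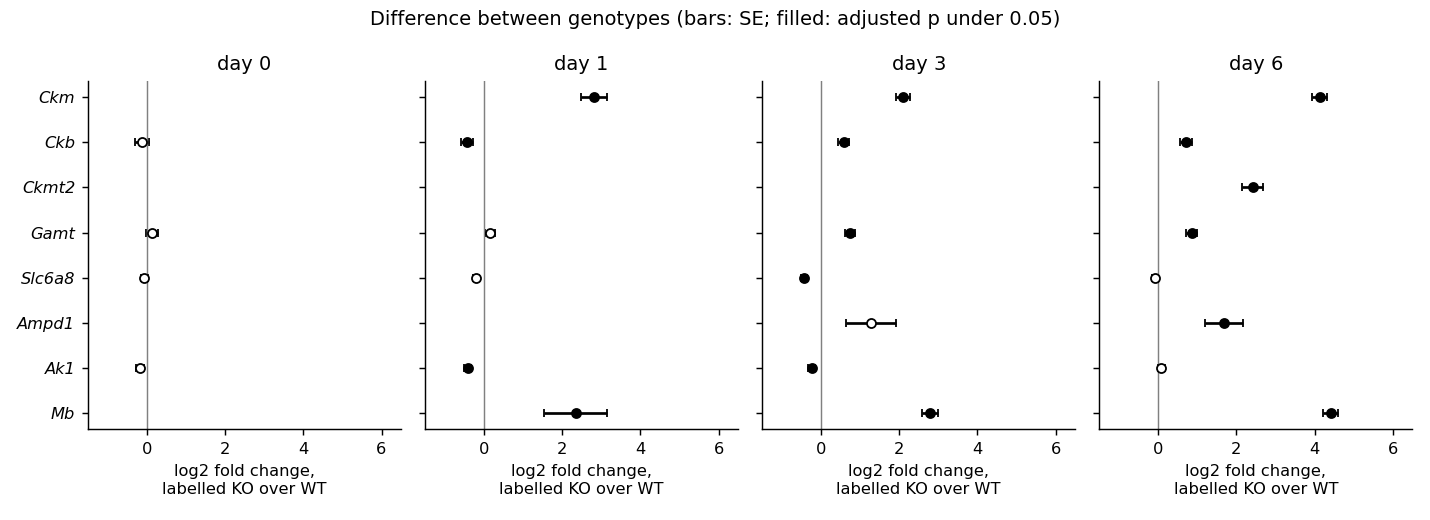
Log2 fold change of labelled KO over WT (horizontal axis, bars are SE) for the members on each day, filled where the adjusted p from edgeR was under 0.05. Ckm and Mb lie furthest to the right on day 6, at 4.13 and 4.41, Slc6a8 and Ak1 lie below 0 on days 1 and 3, and comparisons with too few counts for a fold (day 0 and day 1 for Ckmt2 and Ampd1, day 0 for Ckm and Mb, day 3 for Ckmt2) are not drawn.

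Over time in WT, 3 of the 5 members with a value had risen on day 1 (54.7% of all genes changed), 5 of 7 on day 3 (58.2%) and 8 of 8 on day 6 (63.6%), and none passed as lower. The day 3 rise of Ampd1 in WT did not pass without either WT day 0 library or replicate 3 of WT on day 3 (adjusted p from 0.05314 to 0.0798, edgeR), nor in limma on log2(TPM + 1) (0.20, adjusted p = 0.1624). In labelled KO, 4 of 6 changed on day 1 (52.3% of all genes), 3 up and Slc6a8 down. On day 3 it was 7 of 8 (57.6%), 6 up and Slc6a8 down, and on day 6 it was 8 of 8 (70%), all up. From day 3 to day 6, 5 of 8 changed in WT, 4 up and Ckm down, against 9.79% of all genes, and 6 of 8 rose in labelled KO, against 41.3%. Ak1, one of those up in WT (0.28, adjusted p = 0.04628), did not pass without any 1 of 5 of the 6 libraries, the exception being replicate 3 of day 6 (0.24 to 0.33, adjusted p from 0.05325 to 0.1529, edgeR). Ckb in labelled KO was at 0.15, and passed at 0.45 without replicate 1 of day 3 (adjusted p = 0.003914, edgeR). The time course comparisons share their day 0 libraries within each genotype.

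A difference between the genotypes in the change since day 0 passed for 0 of the 4 members with a value on day 1 (3.95% of all genes), 0 on day 3 (10.7%) and 2 on day 6 (13%), namely Ckb and Gamt. For Ckm, Ckmt2, Ampd1 and Mb the day 0 level was at or under the floor in a genotype, which leaves this difference without a usable estimate. On day 3 the values were 0.69 for Ckb, 0.62 for Gamt and -0.37 for Slc6a8 (adjusted p = 0.051, 0.05008 and 0.05432, edgeR), and the number that passed depended on the fit. From day 3 to day 6 the change differed between genotypes for 4 of 8 members (12.4% of all genes): Ckm, Mb and Slc6a8 in the positive direction and Ckmt2 in the negative. The Slc6a8 value of 0.35 (adjusted p = 0.04822) did not pass without any 1 of 10 of the 12 libraries (0.30 to 0.39, with adjusted p from 0.05641 to 0.1354, edgeR). The Ckmt2 value of -3.10 rests on 2 counts in WT on day 3, did not pass without replicate 1 of that group (-2.60, adjusted p = 0.05271, edgeR), and was 0.47 in limma on log2(TPM + 1) (adjusted p = 0.1192).

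Genes of the connected pathways were taken from lists of creatine supply, nucleotide kinases, the purine nucleotide cycle, ADP and ATP exchange, AMPK subunits and other globins. Of 30 such genes, 27 were tested, and 8 differed between the genotypes on day 0 (4 higher in labelled KO, 4 lower), 21 on day 1 (13 and 8), 20 on day 3 (14 and 6) and 18 on day 6 (14 and 4). Over all genes tested, 17.5%, 42.2%, 43.2% and 42.9% differed on these days, and the 42.9% of day 6 is the background for each list's count below. Their median log2 difference on day 6 was 0.25. Gatm, which makes the creatine precursor that Gamt methylates, was the one tested gene of creatine supply. It had 83.1 CPM in WT and 108 CPM in labelled KO on day 0, and 31.8 and 79.6 CPM on day 6. Its difference was 0.38, 0.63, 0.96 and 1.32 (SE 0.08 each) on days 0, 1, 3 and 6 (adjusted p = 0.002519, 8.902e-07, 8.138e-10 and 2.43e-12, edgeR). Unlike Gamt, Gatm fell over time, by 1.38 in WT and 0.44 in labelled KO by day 6, and these falls differed by 0.94 (SE 0.11, adjusted p = 2.608e-06, edgeR).

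In ADP and ATP exchange, 5 of 6 genes were higher in labelled KO on day 6. Slc25a3, the mitochondrial phosphate carrier, was higher by 0.69, the ADP/ATP carriers Slc25a5 and Slc25a4 by 0.59 and 0.35, and the outer membrane channels Vdac2 and Vdac3 by 0.44 and 0.36. Vdac1 was at -0.01 (adjusted p = 0.9132, edgeR). Between the ADP/ATP carriers, the heart and muscle form Slc25a4 was the more abundant on day 6, with 609 TPM in labelled KO and 524 TPM in WT, and Slc25a5 had 422 and 308 TPM.

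In the purine nucleotide cycle, which Ampd1 opens in muscle, 3 of 5 genes were higher and 1 was lower in labelled KO on day 6. Adsl was higher by 0.54, and the muscle adenylosuccinate synthase Adssl1 and the deaminase Ampd3 by 0.36 each (adjusted p = 0.03016 and 0.02906, edgeR), while the other synthase, Adss, was lower by 0.63 (log2 difference -0.63, adjusted p = 1.989e-06, edgeR). Adssl1 was lower in labelled KO on days 1 and 3 (-0.97 and -0.59, adjusted p = 1.138e-05 and 0.001274, edgeR) and rose over day 0 by 2.19 in WT and 3.04 in labelled KO by day 6. Ampd3 also lay lower in labelled KO before day 6. Its means on days 0, 1 and 3 were 16.9, 24.8 and 34.2 CPM, against 26.8, 48.1 and 53.9 CPM in WT. The day 6 calls of Adssl1 and Ampd3 were lost without replicate 3 of WT (0.28 and 0.27, adjusted p = 0.1407 and 0.149) and with scaling to library size alone (0.29 each, adjusted p = 0.07853 and 0.08402, edgeR), and limma on log2(TPM + 1) gave 0.23 and 0.22 (adjusted p = 0.2033 and 0.2162). Leaving out replicate 2 or 3 of labelled KO or replicate 1 of WT also ended the Adssl1 call (0.37, 0.28 and 0.33, adjusted p = 0.0593, 0.1384 and 0.08944), and replicate 1 or 2 of labelled KO or replicate 2 of WT the Ampd3 call (0.35, 0.31 and 0.33, adjusted p = 0.0611, 0.1022 and 0.08614, edgeR). Ampd2 was at -0.05 on day 6 (adjusted p = 0.7241, edgeR). While the muscle form Adssl1 rose, Adss fell by 0.80 in WT and by 1.57 in labelled KO by day 6 (adjusted p = 8e-08 and 1.106e-13, edgeR), which sets this pair apart in direction from Ckm and Ckb.

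Among 7 nucleotide kinases, 3 were higher on day 6 (Ak3, Nme1 and Nme2, by 0.18 to 0.25) and 2 were lower, Nme4 at -0.48 and Ak5 at -1.24 (adjusted p = 0.01778 and 0.03365, edgeR). The 3 small differences did not pass without replicate 3 of WT (0.13 to 0.19, adjusted p from 0.1887 to 0.2449) or with scaling to library size alone (0.11 to 0.18, adjusted p from 0.08472 to 0.2214, edgeR). In limma on log2(TPM + 1) they were smaller still, at 0.05 for Ak3, 0.12 for Nme1 and 0.07 for Nme2 (adjusted p = 0.6452, 0.2723 and 0.4236). Nme2 was also lost without replicate 3 of labelled KO or replicate 1 of WT (0.18 and 0.19, adjusted p = 0.1174 and 0.115, edgeR). Of the 6 libraries of day 6, leaving out any but replicate 2 of WT ended the calls of Ak3 and Nme1 (0.12 to 0.18 and 0.15 to 0.27, adjusted p from 0.05325 to 0.2916, edgeR). Nme4 did not pass without replicate 1 of labelled KO or replicate 2 of WT (-0.40 and -0.31, adjusted p = 0.06963 and 0.1453), and Ak5, with 8 to 34 counts in these libraries, not without replicate 2 or 3 of either genotype (-1.26 to -0.98, adjusted p from 0.05903 to 0.1422, edgeR). Ak4 and Ak6 did not pass (0.30 and 0.06, adjusted p = 0.09675 and 0.7799, edgeR), though Ak4 did with no filter (0.30, adjusted p = 0.04735) and with only the groups compared (0.29, adjusted p = 0.008058, edgeR). Of 7 AMPK subunits, the kinase that senses AMP, 2 were higher on day 6: Prkaa2 by 1.80 (SE 0.17) and Prkag3 by 1.78 (SE 0.20), the alpha and gamma subunits most typical of muscle (adjusted p = 1.243e-08 and 1.097e-07, edgeR). Prkaa2 was already apart in growth medium, with means of 5.13 CPM in labelled KO and 2.43 CPM in WT. On day 1 it had 4.07 and 1.33 CPM. Prkag3 had 0.91 and 0.79 CPM on day 0. The other 5 subunits lay between -0.20 and 0.30 on day 6 and did not pass. Prkab1 passed as lower with library size alone (-0.26, adjusted p = 0.01244, edgeR), in limma on log2(TPM + 1) and log2(TPM + 0.1) (-0.31 and -0.32, adjusted p = 0.001316 and 0.001348), and without replicate 3 of WT (-0.30, adjusted p = 0.0122, edgeR). Prkag1 passed as lower in both limma fits (-0.20 each, adjusted p = 0.01291 and 0.01359), and Prkag2 as higher without replicate 2 of WT (0.45, adjusted p = 0.01603, edgeR). Of the other globins, Cygb was lower in labelled KO on days 0, 1 and 6, at -1.08, -1.61 and -0.82 (adjusted p = 0.03533, 0.0001159 and 0.01824, edgeR), and at -0.20 on day 3 (adjusted p = 0.5754, edgeR). On day 6 its mean was 2.55 CPM in WT and 1.44 CPM in labelled KO. The change since day 0 differed between the genotypes by 0.26 on day 6 and did not pass (adjusted p = 0.794, edgeR). Without replicate 3 of labelled KO or replicate 2 of WT the day 6 difference did not pass (-0.64 and -0.70, adjusted p = 0.09991 and 0.07371, edgeR). Ngb and Adgb had at most 4 counts in any library.

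**Figure D5:**
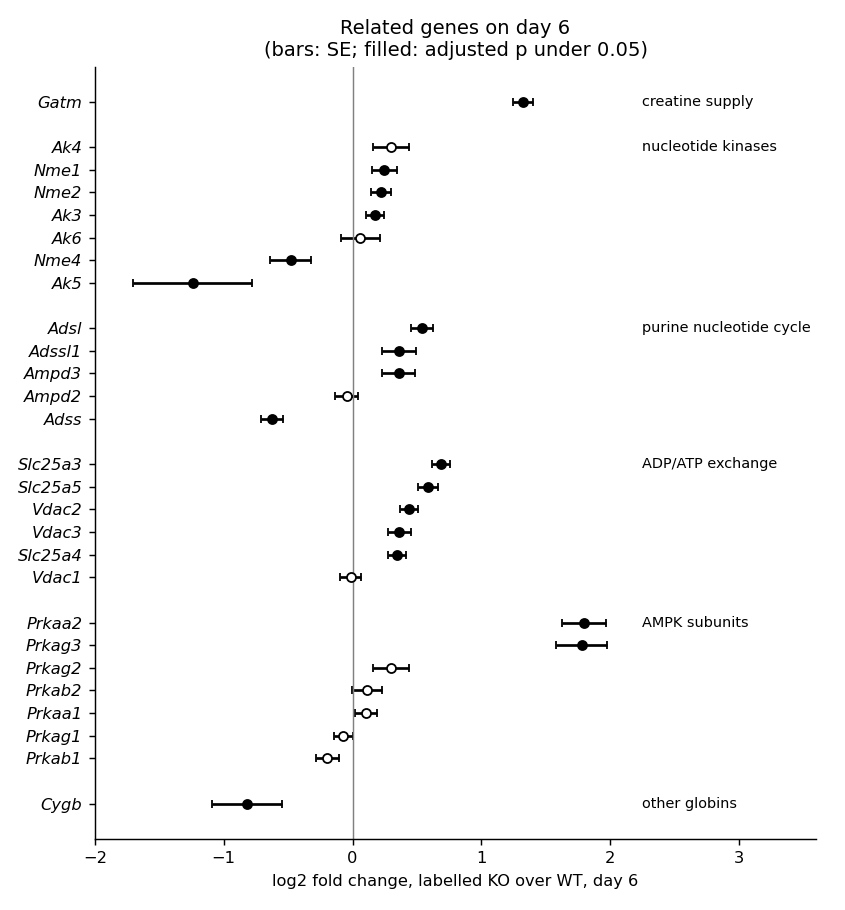
Log2 fold change of labelled KO over WT on day 6 (horizontal axis, bars are SE) for the 27 tested genes of the connected pathways, grouped by list, filled where the adjusted p from edgeR was under 0.05. Prkaa2, Prkag3 and Gatm lie furthest to the right, at 1.80, 1.78 and 1.32, and Ak5 furthest to the left, at -1.24.

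The genes whose log2 CPM over the 23 libraries was most like that of a member were ranked by Pearson's r among 10237 genes with a mean of at least 5 CPM. The points share their genotype and day, so r is given as a description only. For Ckm they were Unc45b, a myosin chaperone, Actc1, cardiac alpha-actin, and Ppfia4 (r = 0.99 each). For Mb they were Usp2, the myosin light chain Myl4 and the calcium-binding sarcalumenin gene Srl (r = 0.99 each). For Ckb they were Ccnd3, cyclin D3, Irgm2 and Chrd (r = 0.95, 0.95 and 0.94), and for Slc6a8 they included Sesn2 and Ptgs2 (r = 0.91 and 0.87). Within the members, r was 0.95 for Ckm and Mb, 0.92 for Ckmt2 and Ampd1, 0.85 for Ckm and Ckb, 0.78 for Slc6a8 and Ak1, and 0.04 for Ckm and Slc6a8. Slc6a8 and Ak1, present in growth medium and least different on day 6, thus followed each other more closely than they followed Ckm.

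Replicate 2 of labelled KO on day 1 stood apart from the other two. Over 13265 genes, the deviation of its log2 CPM from the group mean had r = -0.624 with transcript GC content, against 0.430 and 0.427 in replicates 1 and 3. The members run from 48.4% to 61.7% GC, with a median of 49.9% over genes tested, and Ckb, Gamt, Slc6a8 and Ak1 were lowest in that library. Without it, the day 1 difference was 2.88 for Ckm, -0.33 for Ak1 (adjusted p = 0.001893, edgeR) and -0.12 for Slc6a8. Replicates 2 and 3 of WT on day 6 had opposite trends of smaller size (r = 0.221 and -0.217), and several day 6 calls above were lost or gained without one of them. In the remaining libraries r lay between -0.057 and 0.074. The part of GC content in these values was not tested.

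Some reads cannot be assigned to 1 gene with certainty. Of the exon bases of Mb, 31.9% lie in Apol6 or Gm49540 on the opposite strand, and of those of Ckm, 15.48% in A930016O22Rik. For Ckmt2 it was 5.65%, in 1700119I11Rik, and for Ckmt1 0.4%, in Strc, also on the opposite strand. Whether strand was used in counting is not given in the sources used here. Apol6 had at most 194 counts in any library, in labelled KO on day 6, where Mb had 4211 to 5814, and A930016O22Rik at most 5. Of the 50-base stretches of Ckb transcripts, 9.98% also occur in Ckb-ps1, Ckb-ps2 or Gm12892. The share was 24.92% for Mb, 10.85% for Ckm and 2.51% for Ckmt2, in the overlapping genes named above. The effect of shared stretches on these values was not tested.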

How the data were processed

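Poly(A) RNA of 23 C2C12 libraries was sequenced by the authors. Bowtie2, RSEM and the mm10 build are named in the submitters' processing notes, while versions, gene annotation and strand setting are not given in the sources used here. The authors deposited a table of estimated counts per gene symbol and a table of TPM. Estimated counts were rounded to whole numbers and tested with edgeR 4.0.16 in R 4.3.3: filterByExpr (minimum count 10, minimum total 15) kept 14187 of 32793 genes, 12326 genes had 0 counts throughout, libraries were scaled by TMM, and a single group-means model over the 8 groups gave quasi-likelihood F-tests, with standard errors taken from the F statistic. In each of 16 comparisons, Benjamini-Hochberg adjustment covered all genes tested, and the threshold was 0.05. Depth differed little between libraries, and the floor was 3 counts.

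Named genes are all members in every comparison, Runx1, genes of pathway lists and, for Ckm, Ckb, Mb and Slc6a8, the 3 tested genes of highest Pearson correlation, of which some are not reported here. The members and lists were chosen with earlier results of these data known. Day 3 to day 6 comparisons, and the alternative fits for Runx1 and pathway genes, were added after the data had been seen. Alternatives were RLE scaling, scaling to library size alone, an unfiltered table, genes averaging 50 counts or more, a fit in DESeq2 1.42.0, limma 3.58.1 on log2(TPM + 1) and log2(TPM + 0.1), only the groups compared, a replicate block, and each library left out in turn. Counts were simulated for the day 6 genotype comparison over 14187 genes. Only 200 of them, all averaging over 50 counts, were changed. Their spread was that estimated by edgeR from these data, and no gene was switched on from 0. There edgeR recovered 97% of 2-fold and 100% of 4-fold changes, and 5.742% of its calls were false. In the deposited data 42.9% of genes differed on day 6, and Ckmt2 and Ampd1 averaged under 50 counts. The rates were not measured for such settings. No 2 replicates agreed within sampling noise, with chi-square values of at least 3.19 per degree of freedom. Gene positions and GC content are from GENCODE on GRCm38, and promoter sequences from RefSeq (GRCm38.p6). Of the members, 7 had a promoter entry.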

Additional observations from a re-analysis of the deposited data

Results flagged for a closer look

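A test of the difference between the genotypes in a change over time picked out 6 results, all from edgeR with Benjamini-Hochberg adjustment. From day 3 to day 6, Ckm changed by 2.04 more on the log2 scale in labelled KO than in WT (SE 0.25, adjusted p = 3.833e-05), falling in every WT library relative to day 3, and Mb by 1.62 more (SE 0.29, adjusted p = 0.0009091). Over the same interval Slc6a8 rose by 0.35 more in labelled KO (SE 0.12, adjusted p = 0.04822). Ckmt2 differed by -3.10 (SE 0.75, adjusted p = 0.01302), on 2 counts in WT on day 3. From day 0 to day 6, Ckb rose by 0.82 more in labelled KO (SE 0.23, adjusted p = 0.01541) and Gamt by 0.73 more (SE 0.20, adjusted p = 0.01701). The Slc6a8, Ckmt2, Ckb and Gamt calls were each lost when certain single libraries were left out, as given above. The Ckmt2 value also changed sign in limma on log2(TPM + 1).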

How the results depend on the processing

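Over 104 member values (69 past the threshold), 1621 refits gave 1502 of the same direction and side of the threshold, 40 that no longer passed, 51 that newly passed and 28 of the opposite sign. Numbers of members that passed moved by over 1.5 times as follows, and the causes were not tested. With only the groups compared, 1 member differed between the genotypes on day 0 and 2 changed in labelled KO on day 1, and with log2(TPM + 0.1), 5 changed in WT on day 1. The day 1 interaction (the genotype difference in the change since day 0) gave 1 (DESeq2), 1 (TPM + 1) and 2 (TPM + 0.1), none of them among the 4 members with a usable day 0 level. The day 3 interaction gave 1 (RLE), 3 (library size), 2 (no filter), 1 (genes averaging 50 counts or more), 4 (DESeq2 and both TPM fits, where 3 and 1 had a usable day 0 level) and 2 (only the groups compared), and 0 to 1 when leaving out libraries. The day 6 interaction gave 6 (TPM + 1) and 5 (TPM + 0.1), of which only Ckb and Gamt had a usable day 0 level, and 0 to 2 when leaving out libraries, with 0 without replicate 1 of WT on day 0 or on day 6. The genotype difference from day 3 to day 6 gave 2 to 5, the fewest without replicate 1 of WT on day 3. With CPM in place of TPM, the Ckm share in labelled KO on day 6 was 80.7%.

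Of member values past the threshold, the genotype difference in the day 3 to day 6 change of Ckmt2 alone changed sign (0.47 with TPM + 1). Among the others, with TPM + 1 and TPM + 0.1, Ak1 between genotypes on day 6 was -0.0554 and -0.0558, Slc6a8 in WT on day 3 was 0.129 and 0.131, and Ak1 in labelled KO on day 1 was 0.0389 and 0.0394. The Gamt day 1 interaction was -0.0142 (RLE), -0.0010 (no filter), -0.0247 (genes averaging 50 counts or more), -0.0141 (DESeq2) and -0.0088 (only the groups compared). Leaving out single libraries, values that crossed 0 ranged from -0.107 to 0.0211 for Slc6a8 between genotypes on day 0, -0.189 to 0.0063 for Ak1 in labelled KO on day 1, and -0.0985 to 0.149 for the Gamt day 1 interaction. They ranged from -0.151 to 0.0067 for the Ak1 day 3 interaction, -0.123 to 0.0309 for the Slc6a8 day 6 interaction, -0.0464 to 0.0934 for Ckb in WT from day 3 to day 6, and -0.133 to 0.0276 for Gamt in labelled KO over that interval. The genotype difference over that interval ranged from -0.109 to 0.964 for Ampd1 and -0.0065 to 0.427 for Ckb. Of 36 values for Runx1 and pathway genes, refitted in ways chosen after seeing the data, 12 of 536 refits changed sign, all for day 6 values that had not passed. Ak6 was -0.0092 (library size), -0.0725 and -0.0758 (TPM fits) and -0.0320 to 0.136 without single libraries. Prkaa1 was -0.0212 and -0.0214, and Prkab2 -0.0295 and -0.0293, in the TPM fits. Without single libraries Prkab2 ranged from -0.0345 to 0.169 and Vdac1 from -0.110 to 0.0373.

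Equal replicate numbers did not pair the libraries: over 32 same-numbered pairs the correlation of deviations ran from -0.240 to 0.116, and in 11 the best match carried the same number. With the replicate block, Slc6a8 on day 1 passed (-0.21, adjusted p = 0.0397), Ak1 in WT from day 3 to day 6 did not (0.28, adjusted p = 0.05768), and the Slc6a8 day 6 interaction was 0.01, while no other member call changed (edgeR). Day 3 to day 6 comparisons and their alternatives were chosen after seeing the data. Depth leaves Ckm and Mb on day 0, Ckmt2 and Ampd1 on days 0 and 1, and Ckmt1 on days 0, 1 and 3 without a measurable difference between genotypes. Ckmt1 did not pass the filter and was not tested on day 6 either.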
